A study of Mus musculus with 13 samples.

Results

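The genes described here are 7 of the 55487 genes in the count tables: Dnmt1, Dnmt3a, Dnmt3b, Uhrf1, Tet1, Tet2 and Tet3, the enzymes that write and erase methyl groups on cytosine in DNA and the protein that recruits the maintenance enzyme. They were chosen by symbol, from the known functions of their products, and all 7 passed the filter on low counts in every comparison. RNA was measured in 13 libraries of mouse embryonic fibroblasts (MEFs), which are connective tissue cells grown from embryos, before and after spontaneous immortalization, the outgrowth of dividing colonies from a culture that had stopped dividing. Wild-type (WT) MEFs gave 3 primary and 3 immortalized libraries (clones 3, 4 and 5), and MEFs labelled Prkd3-/-, for the gene of protein kinase D3, gave 3 primary libraries (clones 13, 14 and 15) and 4 immortalized libraries (clones 13, 13a, 14 and 15). All cultures grew in medium with 10% fetal calf serum, raised to 20% once the cells were senescent and returned to 10% for the immortalized lines, and no gene or virus was added to immortalize them. Lines 13 and 13a share an embryo by their number, each line grew out from colonies of a culture, and the WT and Prkd3-/- libraries stand in separate tables, so genotype and table cannot be told apart. The age of the embryos was not given in the sources used here.

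Methylation of cytosine in CpG pairs is copied at each DNA replication. UHRF1 binds the half-methylated pairs behind the replication fork and recruits DNMT1, which methylates the new strand. DNMT3A and DNMT3B methylate sites that carried no mark before, as happens in early development, and the TET enzymes oxidize 5-methylcytosine, after which the base is diluted by replication or replaced by base excision repair. In fibroblasts, Dnmt1 and Uhrf1 are known as genes of dividing cells, while Dnmt3b and Tet1 are known for their high levels in pluripotent cells.

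In the mouse genome (mm10, Ensembl annotation), Dnmt1 (ENSMUSG00000004099) lies at chr9:20907209-20959888 and Uhrf1 (ENSMUSG00000001228) at chr17:56303321-56323486. Dnmt3a (ENSMUSG00000020661) lies at chr12:3806007-3914443 and Dnmt3b (ENSMUSG00000027478) at chr2:153649450-153687730. Tet1 (ENSMUSG00000047146) lies at chr10:62804570-62908996, Tet2 (ENSMUSG00000040943) at chr3:133463679-133545139 and Tet3 (ENSMUSG00000034832) at chr6:83362373-83459084. Dnmt1 and the Tet genes are on the minus strand and the others on the plus strand. Reads were counted over all exons without strand, and Dnmt3a shares 133 of its 16642 exon bases with the antisense gene Dnmt3aos (0 to 31 counts per library) and Tet2 43 of 16870 with Gm42567 (0 to 6 counts), so their reads cannot be told apart there.

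Total counts ranged from 35273408 to 100441756 per library, at which 3 counts correspond to between 0.0299 and 0.0850 CPM, the normalized counts scaled to a common library size. Reads of Prkd3 itself were present in the Prkd3-/- libraries, at 33.6 to 61.0 CPM against 69.2 to 93.7 CPM in the WT libraries, and since counts per gene do not show which exons are present, this does not check the label. Each WT primary library held both Xist, the RNA of the inactive X chromosome (43.8 to 55.9 CPM), and the Y-linked gene Ddx3y (51.6 to 63.7 CPM), although the samples are labelled as 3 clones. WT line 3 held Xist at 170 CPM with 13 counts of Ddx3y, WT lines 4 and 5 held both, and the 7 Prkd3-/- libraries held at most 10 counts of Xist. The WT primary libraries also resembled each other far more than those of any other group, with a standard deviation (SD) of gene-wise log2 ratios between pairs of 0.0891 to 0.131, against 0.276 to 0.716 among Prkd3-/- primary libraries. Whether they came from separate embryos was not tested, and p-values measure only the spread between these libraries. The 16 fibroblast markers summed to between 35452 and 113719 CPM in every library. The 15 macrophage markers summed to 1025 to 1045 CPM in WT primary and 42.2 to 125 CPM in WT immortalized libraries, and to 129 to 1435 CPM and 11.4 to 253 CPM in Prkd3-/- primary and immortalized libraries, and 8 of the 15 were called lower in WT immortalized MEFs. Primary clone 14 had the most, and its part in the levels below was not tested. In bulk RNA, fewer cells of a type and less RNA per cell cannot be told apart.

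Compared as CPM per kilobase of annotated exon, the only scale on which levels of different genes are set side by side here, the maintenance pair was the most abundant and Dnmt3b and Tet1 the least. The lengths count every annotated exon base, 4259 for Uhrf1, 16642 for Dnmt3a and 16695 for Tet3. The order, and the shares and ratios below, therefore depend on the annotation. In WT primary MEFs the level was 14.8 ± 0.882 CPM per kilobase for Dnmt1 (SD, n = 3), followed by Uhrf1 at 11.01 ± 0.694. Dnmt3a followed at 3.76 ± 0.142 and Tet3 at 3.28 ± 0.221. Tet2 stood at 0.914 ± 0.0302, Tet1 at 0.432 ± 0.0723 and Dnmt3b at 0.310 ± 0.0490. The order was the same in all 3 WT primary libraries, and only the neighbours Tet1 and Dnmt3b had overlapping ranges there. Across all 13 libraries, Dnmt1 and Uhrf1 always held the first places, with Dnmt1 above Uhrf1 in 10, and Tet3 and Dnmt3a came next, with Tet3 above Dnmt3a in 8. Tet2 exceeded Tet1 in 11 libraries and Tet1 exceeded Dnmt3b in 11, so these neighbours changed places between lines. Dnmt3b was counted 27 to 171 times per library, which makes it the least precisely measured of the 7.

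**Figure D1:**
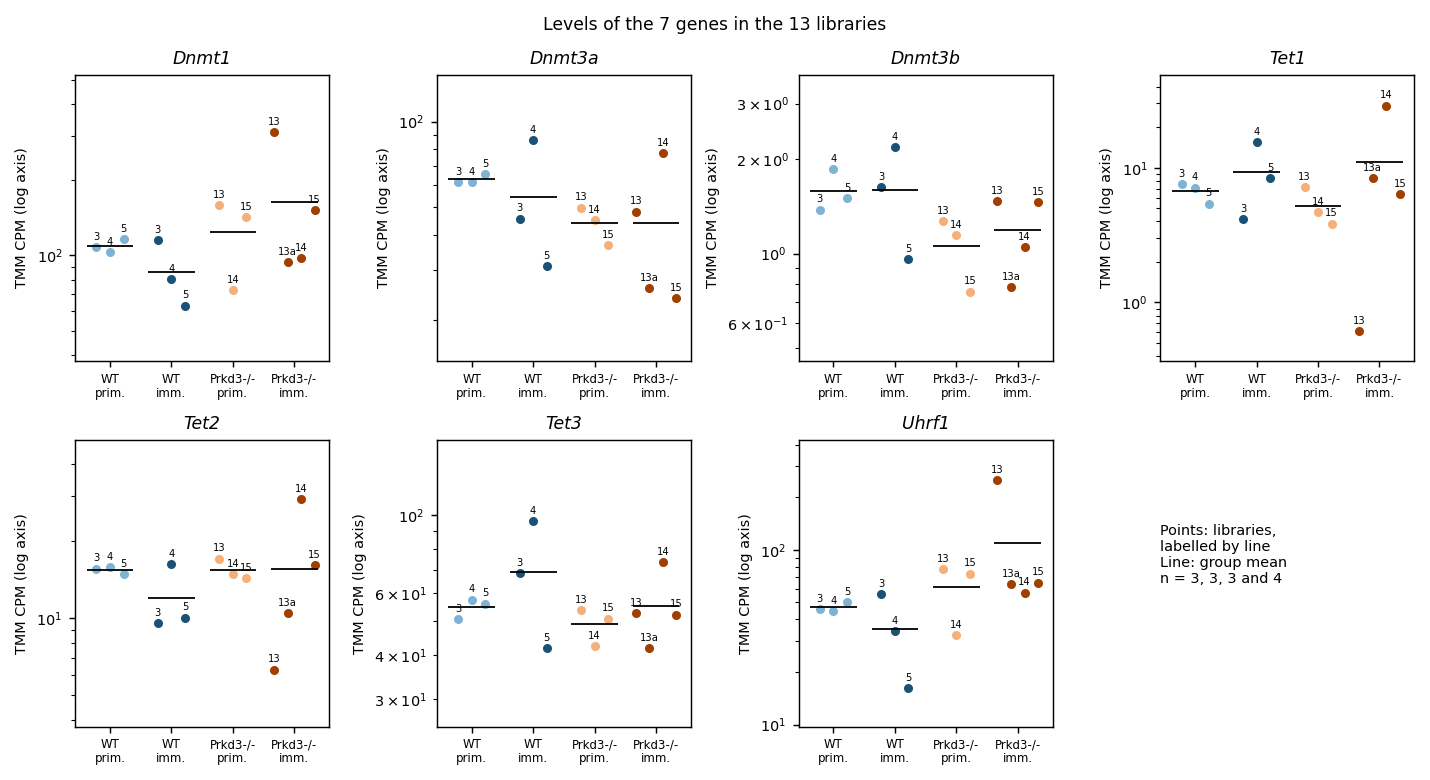
Levels of the 7 genes as TMM-normalized CPM (log axis, 1 panel per gene with its own range) in the primary (prim.) and immortalized (imm.) libraries of each genotype; points are libraries labelled by line and horizontal bars are group means (n = 3, 3, 3 and 4). Immortalized libraries spread more widely than primary ones for each gene, with Prkd3-/- line 13 at 309 CPM of Dnmt1, 251 CPM of Uhrf1 and 0.611 CPM of Tet1.

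The first question was whether any of these genes changed with immortalization. None of the 7 was called in WT MEFs, in Prkd3-/- MEFs or in the average of both genotypes, where a call required a |Log2FC| of at least 1 and an adjusted p-value under 0.01 by the quasi-likelihood test of edgeR, Log2FC being the log2 ratio of immortalized to primary. Over all genes, 361 of 19836 were called in WT (1.82%), 0 of 20298 in Prkd3-/- (0%; 1331 genes, or 6.56%, had an unadjusted p-value under 0.05, and DESeq2 called 190) and 157 of 21197 in the average (0.741%). At these shares, a count of 0 among 7 genes does not set them apart from the background. With the clone number as a block, which assumes that clones of a number share an embryo and is doubtful for WT given the Xist and Ddx3y counts above, 0 genes were called in WT (2784 with an unadjusted p-value under 0.05) and 5 in the average, and again no member. No member had an unadjusted p-value under 0.05 either, where 19.7% of genes did in WT and 17.3% in the average. Nor did the primary and immortalized ranges separate for any member in either genotype, whereas 31.3% of tested genes in WT (13.9% higher, 17.4% lower in immortalized libraries) and 9.45% in Prkd3-/- (4.19% higher, 5.26% lower) had ranges that did not overlap. DESeq2, with background calls of 5.59% in WT, 0.781% in Prkd3-/- and 3.54% in the average, called none of the 7 as well.

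The intervals around these differences were wide for some genes and narrow for others. In WT, the 95% intervals of Dnmt1 (−0.89 to 0.21), Dnmt3b (−0.83 to 0.84) and Tet2 (−0.92 to 0.18) lay within a Log2FC of 1 either way, so a doubling or a halving fell outside them. In Prkd3-/- this held for Tet3 alone (−0.37 to 0.69). For Tet1, the interval ran from −0.68 to 1.64 in WT and from −1.29 to 3.47 in Prkd3-/-, so that a rise by a Log2FC of 1 lay within the interval in both genotypes and a fall by 1 in Prkd3-/- alone. In the average of both genotypes, the intervals of Dnmt1, Dnmt3a, Dnmt3b, Tet2 and Tet3 lay within a Log2FC of 1. Those of Tet1 (−0.59 to 2.16) and Uhrf1 (−0.69 to 1.12) did not. All these fits took 1 spread per gene for both states, although the lines spread more. For Dnmt1 in WT, the SD of log2 CPM was 0.086 in primary and 0.44 in immortalized libraries. The WT primary libraries may also not be separate embryos, so the intervals may be too narrow to exclude a doubling or a halving.

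**Figure D2:**
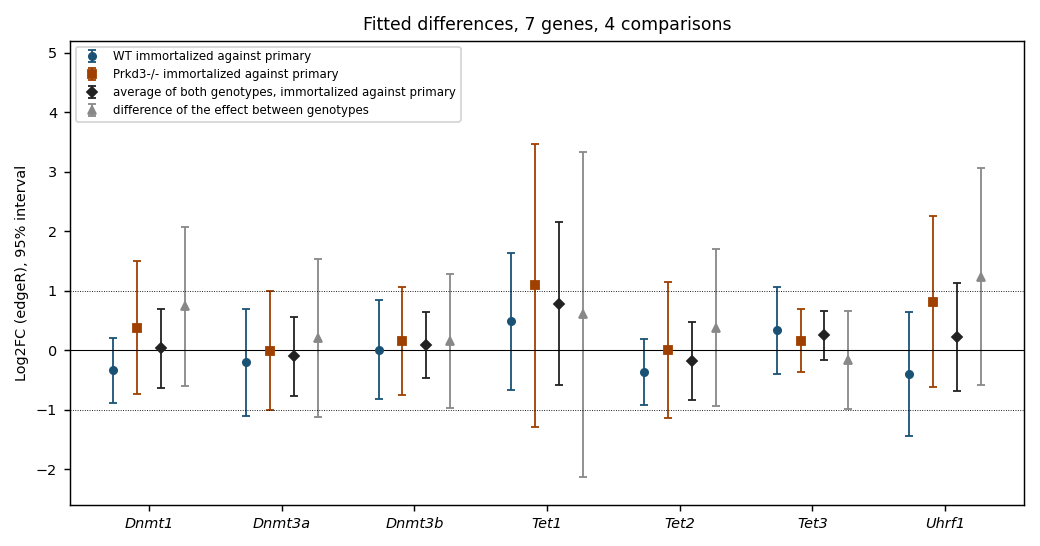
Fitted Log2FC of the 7 genes in 4 comparisons (edgeR), with 95% intervals as bars and dotted lines at a Log2FC of 1 and −1; the fourth comparison is the Prkd3-/- effect minus the WT effect. Every interval includes 0, and the widest, for Tet1 in the fourth comparison, runs from −2.13 to 3.33.

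Dnmt1 and Uhrf1, the maintenance pair, moved together from line to line, and neither differed between states beyond the spread of the lines. In WT, Dnmt1 was at 108, 103 and 116 CPM in primary clones 3, 4 and 5 and at 115, 80.3 and 63.0 CPM in the immortalized lines of the same numbers. Uhrf1 was at 45.7, 44.7 and 50.2 CPM in the primary clones and at 55.9, 34.2 and 16.2 CPM in the lines. Line 3 was within the primary range for Dnmt1 and above it for Uhrf1, and lines 4 and 5 were below it for both, so that the groups overlapped. The Log2FC was −0.34 ± 0.22 for Dnmt1 (standard error (SE), adjusted p = 0.465, edgeR) and −0.40 ± 0.42 for Uhrf1 (adjusted p = 0.653). Without WT line 3 the Dnmt1 difference was −0.60 ± 0.13 with an adjusted p of 0.0463, which passes 0.05 but not the thresholds for a call.

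In Prkd3-/- MEFs the same pair was led by a single line. Dnmt1 was at 158, 72.4 and 142 CPM in primary clones 13, 14 and 15, and at 309, 94.0, 97.6 and 152 CPM in lines 13, 13a, 14 and 15. Uhrf1 was at 77.9, 32.6 and 73.0 CPM in the primary clones and at 251, 63.7, 56.8 and 64.9 CPM in the lines. Line 13 held 3.22 times the Uhrf1 level and 1.95 times the Dnmt1 level of its own primary clone, while line 13a, from the same embryo, held 0.818 and 0.594 times. Primary clone 14 was the lowest library of this genotype for both genes. The fitted Log2FC was 0.38 ± 0.48 for Dnmt1 (adjusted p = 0.895, edgeR) and 0.81 ± 0.61 for Uhrf1 (adjusted p = 0.849). The Uhrf1 difference ranged from 0.015 to 1.02 when libraries were left out in turn, and the Dnmt1 difference from −0.12 to 0.58, the lowest values being those without line 13.

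The levels of both genes followed those of 34 S-phase and mitosis genes (such as Mcm2 of the replicative helicase and Mki67) that do not include them. Their summed level was 1334 to 1478 CPM in WT primary libraries and 1603, 1123 and 690 CPM in WT lines 3, 4 and 5. It was 2164, 1136 and 2020 CPM in Prkd3-/- primary clones 13, 14 and 15, and 5267, 1412, 1455 and 2377 CPM in lines 13, 13a, 14 and 15. With each genotype centred on its mean, log2 levels of Dnmt1 correlated with the log2 sum at r = 0.985 and rho = 0.956, and those of Uhrf1 at r = 0.959 and rho = 0.912, over 13 libraries that share depth scaling and, in pairs, embryos. Without the 2 libraries farthest from the median sum, Prkd3-/- line 13 and WT line 5, r was 0.980 for Dnmt1 and 0.835 for Uhrf1. For the other 5 members r lay between −0.716 (Tet1, −0.326 without line 13) and 0.547 (Dnmt3b). Per 1000 CPM of this sum, Dnmt1 took 58.7 to 91.3 CPM, a range of 1.55 times, where its level ranged over 4.91 times. Uhrf1 took 23.5 to 47.6 CPM, a range of 2.02 times, where its level ranged over 15.4 times. What remains is a larger Uhrf1 share in lines 13, 13a and 14 (39.1 to 47.6 CPM) than in the other 10 libraries (23.5 to 36.1). The list itself had a median Log2FC of −0.40 in WT (all tested genes 0.036) and 0.61 in Prkd3-/- (all tested genes 0.068), and none of its genes was called.

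**Figure D3:**
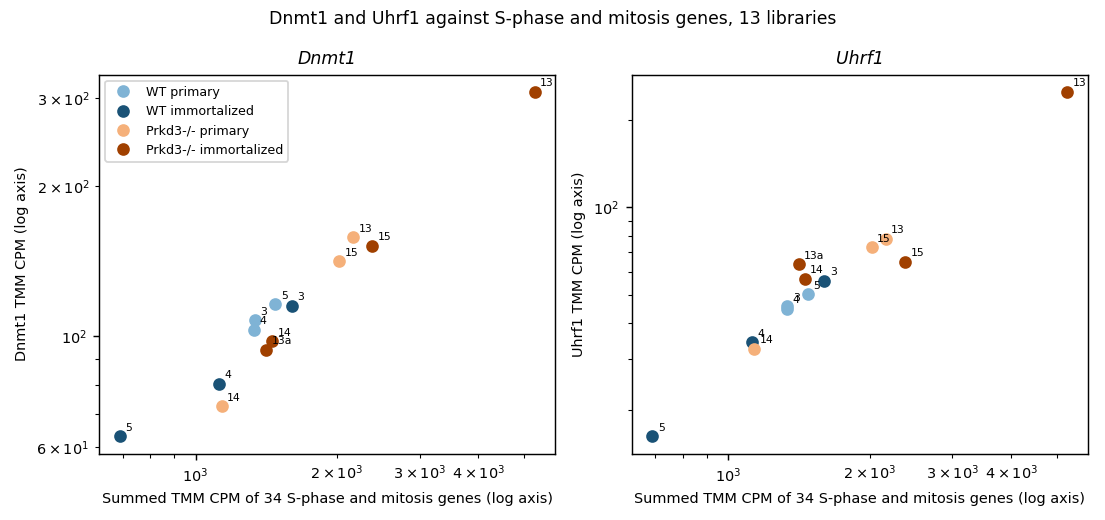
Levels of Dnmt1 (left) and Uhrf1 (right) against the summed level of 34 S-phase and mitosis genes, both as TMM-normalized CPM on log axes; points are the 13 libraries, coloured by group and labelled by line. Both genes rise along the sum from WT line 5 (690 CPM) to Prkd3-/- line 13 (5267 CPM), with primary libraries of both genotypes in between.

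By the same centred correlation over the 13 libraries, the genes most like Dnmt1 were Bard1, the partner of BRCA1 (r = 0.980), Ercc6l, a helicase of mitotic chromosomes (0.980), and Ncapd3 of the condensin II complex (0.976). Those most like Uhrf1 were Gm5648 (0.994), Cdc6, which loads the replicative helicase and is on the S-phase list (0.987), and Chtf18, a subunit of a clamp loader (0.982). Gm5648 is annotated as a processed pseudogene on chromosome X and shares 14.7% of the 50-base words of Uhrf1 transcripts, and its counts were 10.5% to 13.4% of those of Uhrf1 in every library. The split of reads between Uhrf1 and this copy is therefore uncertain, by a share that hardly differed between libraries. Dnmt1 and Uhrf1 correlated with each other at r = 0.939 (0.871 without line 13), the 88th highest of 21196 genes for Dnmt1.

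Both genes also share a word in their promoters, shown here because it sets them apart from the other 5 members. E2F factors, which switch on genes at the start of S phase, are known to bind 8-base words of the kind TTTCCCGC, TTTGGCGC, TTTCGCGC and TTTGCCGC. On either strand, at least 1 of these 4 occurs in 1.86% of the 32851 windows of 250 bases before RefSeq transcript starts (GRCm38.p6), and among the 12 windows of the 7 genes it occurs once in Dnmt1 and once in Uhrf1. Both hold the same word, on opposite strands. In Dnmt1 it lies within the 30 bases chr9:20952824-20952853 (minus strand, in an exon of another annotated Dnmt1 transcript), 219 bases before a start. In Uhrf1 it lies in the window chr17:56304063-56304312 (plus strand), 185 bases before a start. The 30 bases around the word in each gene and the whole Uhrf1 window follow, 5′ to 3′, with the word in capitals.
Dnmt1: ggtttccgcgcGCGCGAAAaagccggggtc
Uhrf1: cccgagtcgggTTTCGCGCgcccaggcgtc
Uhrf1 window: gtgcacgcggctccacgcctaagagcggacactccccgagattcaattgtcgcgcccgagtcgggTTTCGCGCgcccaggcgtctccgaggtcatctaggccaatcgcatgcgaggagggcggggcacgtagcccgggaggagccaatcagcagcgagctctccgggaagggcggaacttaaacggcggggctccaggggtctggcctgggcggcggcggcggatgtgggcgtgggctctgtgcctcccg
Of the other words searched on both strands, CCAAT occurs in windows of Dnmt1, Uhrf1 and Tet3 (33.8% of all windows), GGGCGG in at least 1 window of all 7 genes (32.7%), TTTGAA in windows of Dnmt1 and Dnmt3b (16.0%), and TTCGAA (1.34%) and the palindromic NRF1 motif (0.782%) in none of the 7. A match describes these letters only. The windows with the E2F word held 26 CpG pairs in Dnmt1 and 30 in Uhrf1, against a median of 6 over all windows, and the Tet2 window held 51.

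Dnmt3a and Dnmt3b, the de novo enzymes, did not separate the states in either genotype. Dnmt3a was at 61.1, 61.4 and 65.3 CPM in WT primary clones 3, 4 and 5 and at 45.5, 86.2 and 30.9 CPM in the lines. In Prkd3-/- it was at 49.8, 45.1 and 36.7 CPM in primary clones 13, 14 and 15 and at 48.2, 25.9, 77.3 and 23.9 CPM in lines 13, 13a, 14 and 15. WT line 4 and Prkd3-/- line 14 were above every primary library of their genotype, and WT lines 3 and 5 and Prkd3-/- lines 13a and 15 were below. The Log2FC was −0.21 ± 0.37 in WT (adjusted p = 0.804, edgeR) and −0.012 ± 0.43 in Prkd3-/- (adjusted p = 0.998). Without WT line 4 the WT difference was −0.71, and without line 5 it was 0.077.

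Dnmt3b stayed near 1 to 2 CPM throughout. It was at 1.38, 1.86 and 1.502 CPM in WT primary clones 3, 4 and 5 and at 1.63, 2.18 and 0.961 CPM in the lines. In Prkd3-/- it was at 1.27, 1.15 and 0.757 CPM in the primary clones and at 1.47, 0.781, 1.05 and 1.46 CPM in lines 13, 13a, 14 and 15. The groups overlapped in both genotypes, with a Log2FC of 0.0060 ± 0.34 in WT (adjusted p = 0.995, edgeR) and 0.15 ± 0.39 in Prkd3-/- (adjusted p = 0.957). Dnmt3b shares 9.81% of its 50-base words with Dnmt3c, its rodent copy known from male germ cells, which had at most 1 count in any library. Dnmt3l, the cofactor of the de novo enzymes in germ cells, had at most 13 counts in any library. As shares of the summed CPM per kilobase of the 3 Dnmt genes, Dnmt1 made up 77.5% to 78.8% in WT primary libraries and 66.0% to 83.6% in WT lines. The Prkd3-/- shares of Dnmt1 were 77.0% to 89.1% in primary clones and 73.2% to 92.9% in lines. Dnmt3a took most of the rest, up to 31.4% in WT line 4 and 25.7% in Prkd3-/- line 14, and Dnmt3b at most 2.59%.

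Among the erasers, Tet1 varied most between immortalized lines. It was at 7.53, 7.11 and 5.42 CPM in WT primary clones 3, 4 and 5 and at 4.17, 15.5 and 8.37 CPM in the lines. In Prkd3-/- primary clones 13, 14 and 15 it was at 7.13, 4.68 and 3.84 CPM, and in lines 13, 13a, 14 and 15 at 0.611, 8.40, 28.9 and 6.35 CPM. The value of line 13 rests on 32 counts (exact Poisson interval 21.9 to 45.2 counts, or 0.418 to 0.862 CPM, for counting error only), where its primary clone had 619. Lines 13 and 14 lie on opposite sides of the primary range, at 11.7 times less and 6.18 times more than the primary clone of the same number. The Log2FC was 0.48 ± 0.47 in WT (adjusted p = 0.628, edgeR) and 1.09 ± 1.02 in Prkd3-/- (adjusted p = 0.876). In Prkd3-/- it ranged from −0.030 to 1.48 when libraries were left out, the lowest without line 14 and the highest without line 13.

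Tet2 stood below the primary range in some lines and above it in others. In WT it was at 15.6, 15.8 and 14.9 CPM in primary clones 3, 4 and 5 and at 9.54, 16.3 and 10.0 CPM in the lines. Lines 3 and 5 were thus below the primary range and line 4 above it, and the Log2FC was −0.37 ± 0.22 (adjusted p = 0.431, edgeR). Without line 4 it was −0.65 ± 0.097 with an adjusted p of 0.0283, again short of a call. In Prkd3-/- Tet2 was at 17.0, 14.9 and 14.3 CPM in the primary clones and at 6.28, 10.5, 29.2 and 16.0 CPM in lines 13, 13a, 14 and 15. The Log2FC was 0.0052 ± 0.49 (adjusted p = 0.999, edgeR, 95% interval −1.14 to 1.15), with lines 13 and 13a below every primary clone and line 14 above.

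Tet3, the most abundant Tet gene in every library, had the narrowest interval in Prkd3-/-. It was at 50.5, 57.5 and 56.1 CPM in WT primary clones 3, 4 and 5 and at 68.3, 96.3 and 41.8 CPM in the lines. The Prkd3-/- levels were 53.8, 42.4 and 50.8 CPM in the primary clones and 52.8, 41.9, 73.4 and 52.2 CPM in lines 13, 13a, 14 and 15. The Log2FC was 0.33 ± 0.29 in WT (adjusted p = 0.594, edgeR) and 0.16 ± 0.23 in Prkd3-/- (adjusted p = 0.906). Of the summed CPM per kilobase of the 3 Tet genes, Tet3 made up 68.2% to 73.5% in the 6 primary libraries of both genotypes and 55.0% to 88.5% in the 7 lines. The Tet1 share ranged from 1.11% in Prkd3-/- line 13 to 23.4% in line 14, the primary range being 6.01% to 10.97%. The summed level of the 3 Dnmt genes was 3.43 to 5.26 times that of the 3 Tet genes in primary libraries, 3.79, 2.13 and 2.91 times in WT lines 3, 4 and 5, and 12.6, 3.93, 2.26 and 4.97 times in Prkd3-/- lines 13, 13a, 14 and 15.

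**Figure D4:**
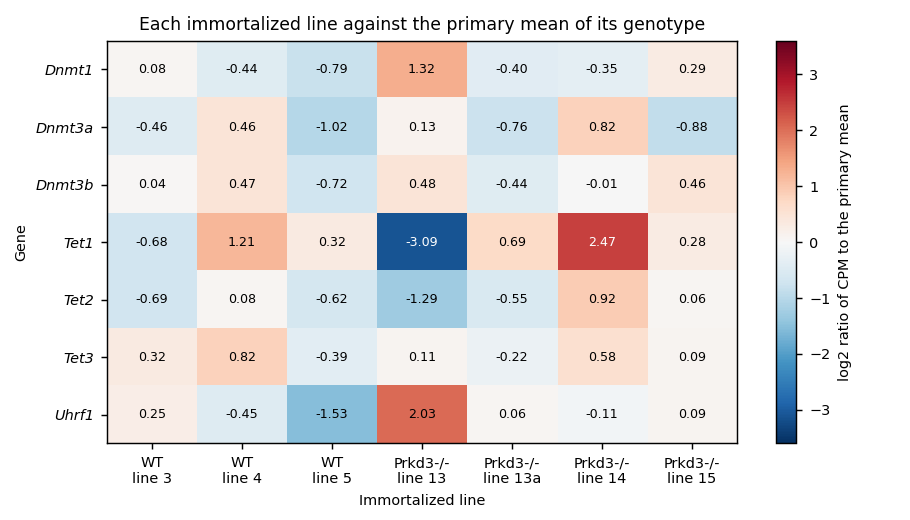
Log2 ratio of each immortalized line to the mean CPM of the primary libraries of its genotype, for the 7 genes (rows) and 7 lines (columns), with red above and blue below the primary mean. Prkd3-/- line 13 combines 2.03 for Uhrf1 and 1.32 for Dnmt1 with −3.09 for Tet1, while line 14 has 2.47 for Tet1 and 0.92 for Tet2.

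Tet1 and Tet2 varied together across the libraries, and Tet3 followed them less closely, a contrast that was small without Prkd3-/- line 13. Over the 13 libraries, with each genotype centred, Tet1 and Tet2 correlated at r = 0.832 (rho = 0.681, r = 0.653 without line 13). Tet3 correlated with Tet1 at r = 0.319 (rho = 0.154) and with Tet2 at r = 0.411 (rho = 0.407), and most with Dnmt3a among the members (r = 0.673, rho = 0.615). Without line 13, r of Tet3 was 0.545 with Tet1, 0.593 with Tet2 and 0.676 with Dnmt3a. Tet2 then correlated with Dnmt3a at r = 0.826, above its value with Tet1. Dnmt1 and Tet1 had r = −0.708, which fell to −0.343 without line 13. The genes most like Tet1 were Natd1, Vps41 and Cbr4 (r = 0.971 to 0.980), those most like Tet2 were Zfp651, Zfp185 and Pskh1 (r = 0.961 to 0.962), and those most like Tet3 were Gm48701, Gm44669 and N4bp2os (r = 0.902 to 0.906). For Dnmt3a they were Bckdhb, Gm5558 and Tpmt (r = 0.873 to 0.899) and for Dnmt3b Elf2 (r = 0.924) and Atad2b (r = 0.856), none of them a member of any list used here.

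The chromosomes that carry the Tet genes were themselves shifted in some lines. In WT line 4, the 73 tested genes within 5 Mb of Tet1 on chromosome 10 had a median log2 shift of 0.49 from the primary mean, relative to all autosomal genes, and Tet1 was shifted by 1.24. In Prkd3-/- line 14, where Tet1 was shifted by 2.52, and in line 13, where it was shifted by −2.97, its neighbours stood at 0.071 and −0.067. In WT line 5 and Prkd3-/- line 15 the neighbours stood at 0.20 and 0.35, and Tet1 at 0.35 and 0.33. In WT line 3 and Prkd3-/- line 13a the neighbours stood at −0.051 and 0.023, and Tet1 at −0.65 and 0.73. The 70 genes around Tet2 on chromosome 3 had medians of −0.33 to −0.0069 over the 7 lines, below 0 in every line, and were at −0.28 in line 14, where Tet2 stood at 0.93. In WT lines 3 and 5 and Prkd3-/- line 13a they were at −0.19, −0.33 and −0.21, and Tet2 at −0.68, −0.61 and −0.55. In WT line 4 and Prkd3-/- lines 13 and 15 they were at −0.0095, −0.0069 and −0.12, and Tet2 at 0.092, −1.24 and 0.059. The 123 genes around Tet3 on chromosome 6 stood at 0.64 in Prkd3-/- line 15, where Tet3 was at 0.093. Around Dnmt1, Dnmt3a, Dnmt3b and Uhrf1 no median was beyond 0.15 either way. The part of such shifts in the levels of the genes was not tested.

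**Figure D5:**
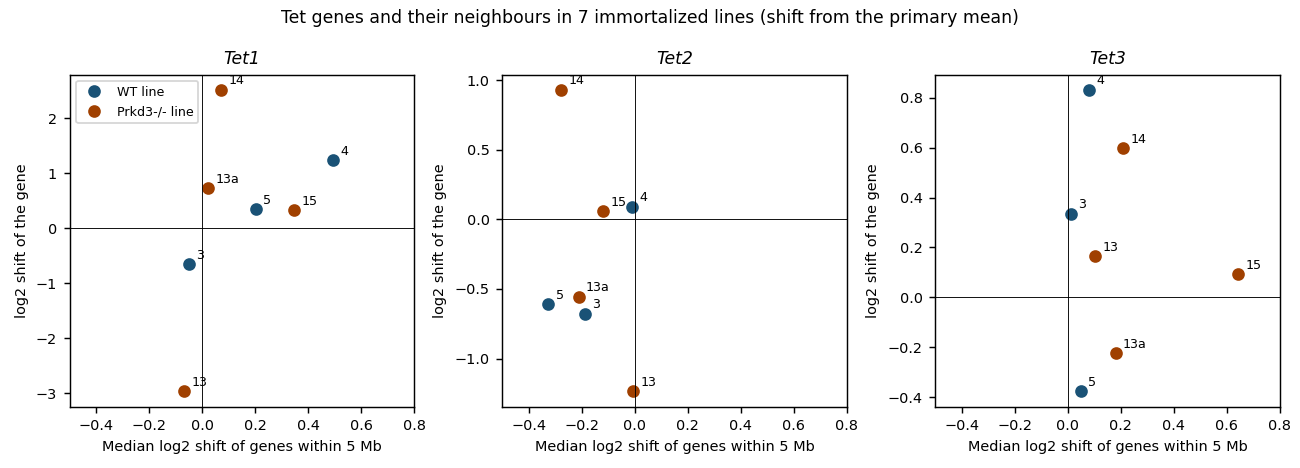
Log2 shift of Tet1, Tet2 and Tet3 in each of 7 immortalized lines (vertical axis) against the median log2 shift of the tested genes within 5 Mb on the same chromosome (horizontal axis), both from the primary mean of the genotype and relative to all autosomal genes. The neighbours of Tet1 ranged from −0.067 to 0.49, and Tet1 itself from −2.97 to 2.52.

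What distinguished immortalized from primary libraries for all 7 genes was the spread between libraries, and here they resembled the rest of the transcriptome. The SD of log2 CPM was 0.048 to 0.25 for the members in WT primary libraries and 0.42 to 0.94 in WT immortalized libraries. In Prkd3-/- it was 0.13 to 0.70 and 0.33 to 2.31. It was larger in immortalized libraries for 7 of 7 members in each genotype, beside 88.9% of tested genes in WT and 83.1% in Prkd3-/-. The median over all tested genes was 0.081 in WT primary and 0.33 in WT immortalized libraries, and 0.26 and 0.55 in Prkd3-/-. The WT primary libraries may not be separate embryos, which would lower their spread. In Prkd3-/-, 3 primary libraries were set beside 4 immortalized ones, with lines 13 and 13a sharing an embryo by number. Whether immortalization itself widened the spread was not tested. Tet1 in Prkd3-/- lines, with an SD of 2.31, stood above 93.8% of the genes tested over all 13 libraries, and Uhrf1, with 1.01, above 74.3%.

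The change with immortalization in Prkd3-/- was then set against that in WT through an interaction term, fitted to the 13 libraries together, with calls at adjusted p-values under 0.05 and any fold. No member passed, and no gene did among 21197 (0%, with 841 genes or 3.97% under an unadjusted p-value of 0.05, and 38 genes called by DESeq2). The largest difference was that of Uhrf1, at 1.24 ± 0.83 on the log2 scale (95% interval −0.59 to 3.07, unadjusted p = 0.165, adjusted p = 1.00, edgeR), with Dnmt1 next at 0.73 ± 0.61. Without line 13 the Uhrf1 difference was 0.42, the lowest value when libraries were left out, and the direction was the same in each of those fits. Levels themselves are not tested between genotypes, because genotype and count table coincide. The Prkd3 levels and the Uhrf1 shares set side by side above carry the same limit.

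Genes that work with these enzymes gave few calls. Of 16 maintenance partners, 15 were tested in each genotype and none was called, with a median Log2FC of −0.15 in WT and 0.44 in Prkd3-/-, where the medians over all genes were 0.036 and 0.068. Hells, the chromatin remodeller that assists maintenance, was at 21.97 to 24.81 CPM in WT primary clones, 32.0, 18.4 and 11.7 CPM in WT lines 3, 4 and 5, and 142 CPM in Prkd3-/- line 13. The 3 WT lines stood in the same order for Hells as for Dnmt1. Hells was named after its values were seen. Uhrf2, the relative of Uhrf1, was at 49.2 to 51.8 CPM in WT primary and 58.0 to 63.5 CPM in WT immortalized libraries, with no overlap. The Log2FC was 0.25 ± 0.078 and was not called (adjusted p = 0.160, edgeR). Of the 16 partners in WT, 1 was higher without overlap and 3 were lower, beside 13.9% and 17.4% of all tested genes. In Prkd3-/-, Uhrf2 was at 56.7 to 62.2 CPM in primary and 51.8 to 87.3 CPM in immortalized libraries. These ranges overlapped, with a Log2FC of 0.19 ± 0.22 (adjusted p = 0.887, edgeR). Of 12 de novo partners, 10 were tested and none was called, the median being 0.0098 in WT and 0.11 in Prkd3-/-. Of 10 methyl-CpG readers, all were tested and none was called, with medians of 0.17 in WT and 0.28 in Prkd3-/-. Mbd3 of the NuRD complex led them in the average of genotypes at 0.37 ± 0.11 (adjusted p = 0.110, edgeR).

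None of the 19 base excision and TET partners was called, and at an adjusted p-value under 0.05 (5.27% of genes in WT, 3.25% in the average) 1 was higher in WT and 1 in the average, shares near those over all genes. Tdg, the glycosylase that removes oxidized methylcytosine, was at 8.10 to 9.49 CPM in WT primary and 12.0 to 20.7 CPM in WT immortalized libraries, and at 11.5 to 14.5 and 13.2 to 25.003 CPM in Prkd3-/-. Its Log2FC was 0.74 ± 0.17 in the average (adjusted p = 0.0431, edgeR), although 41.2% of its 50-base words also occur in other genes, among them the pseudogene Tdg-ps, so its reads may be split. Gadd45a, a stress gene linked to demethylation, was at 11.5 to 12.1 CPM in WT primary libraries and 19.8, 42.9 and 32.3 CPM in WT lines 3, 4 and 5. Its Log2FC was 1.43 ± 0.28 in WT (adjusted p = 0.0471, edgeR) and 0.30 ± 0.58 in Prkd3-/- (adjusted p = 0.934). Of 21 genes of methyl donor and cofactor metabolism, 20 were tested and none was called.

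Germline genes, a class known to be silenced in somatic cells by promoter methylation, differed widely in level, with some at 0 and others, such as Sycp3 of the meiotic chromosome axis, at 1.45 to 4.64 CPM in every library. Of the 24 on the list, 7 passed the filter in each genotype, so their results describe only genes with counts. Ddx4 and Tex11 passed in WT through their primary counts alone, so only a lower level in the lines could be seen for them. Fewer cells with these RNAs and less RNA per cell cannot be told apart, and methylation was not measured. The only call, 1 of 7 tested in WT beside 1.82% of all genes, was Ddx4, an RNA helicase of germ cells. It had 80, 106 and 62 counts in WT primary clones 3, 4 and 5 and 1, 0 and 2 counts in the lines (adjusted p = 0.00513, edgeR). Primary over immortalized, that is a ratio of 72.5 (exact 95% interval 24.5 to 354, counting error only). In Prkd3-/- it had 253, 24 and 42 counts in primary clones 13, 14 and 15 and 1, 15, 29 and 3 counts in lines 13, 13a, 14 and 15 (adjusted p = 0.730, edgeR), with line 14 above its own primary clone. Tex11, a meiotic gene, had 23, 46 and 26 counts in WT primary clones and 0 in every immortalized line of both genotypes. In WT this is at least 27.8-fold lower against a floor of 3 counts over the group (adjusted p = 0.0147, edgeR, not called). In Prkd3-/- primary clones 13, 14 and 15 it had only 2, 13 and 12 counts, and it was not tested in that genotype. Rhox5 stayed at or below 0.300 CPM and Dnmt3l at or below 0.198 CPM in all 13 libraries. Tdrkh ranged from 3.35 to 13.3 CPM in Prkd3-/- primary clones and from 1.53 to 38.9 CPM in the lines, the highest being line 15. Rhox5, Dnmt3l and Tdrkh were named after their values were seen.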

How the data were processed

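Poly(A) RNA of 13 MEF cultures was sequenced as paired reads of 100 bases. The authors deposited raw counts of read pairs per gene in 2 tables. Per the WT file header, STAR (2.7.10a) alignments to mm10 were counted with featureCounts (Subread 2.0.6) over Ensembl release 102 exons, without strand, with pairs assigned to every overlapping gene. The Prkd3-/- table has no header, and the labels list the same tools. The options of its counting are not given in the sources used here. No reads were realigned.

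The 7 genes and all lists were chosen with earlier results of these data known. Symbols were paired with gene IDs for 55141 of 55487 genes (GENCODE vM21). Counts were scaled by TMM over all 13 libraries to CPM, and per kilobase of exon for comparisons between genes. Each genotype was tested separately, and the average and the difference between genotypes in 1 fit of 13 libraries, with filterByExpr and the robust quasi-likelihood test of edgeR (4.0.16) in R 4.3.3 and Benjamini-Hochberg adjustment. Standard errors are |Log2FC| over the root of F. Calls needed an adjusted p-value under 0.01 and |Log2FC| of at least 1, or under 0.05 for the difference. Correlations used log2 CPM centred within genotype (prior count 1) and carry no p-value. The alternatives were DESeq2 (1.42.0), its size factors, no filter, limma (3.58.1) with a weight per state, the clone number as a block, a joint fit, lines 13 and 13a summed, other thresholds and each library left out.

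All 7 genes are named. From each list, the 4 genes with the smallest p-value in the average and any called gene could be named, with the 3 most correlated genes per member. Others were named after their values were seen, among them Xist and Ddx3y. Results for some genes that this rule names are not reported here. Clone numbers were taken to pair primary and immortalized cultures of an embryo, which is doubtful for WT, and their deviations correlated at −0.033, 0.019 and −0.039 in WT clones 3, 4 and 5 and at 0.14, −0.28, 0.088 and 0.040 in lines 13, 13a, 14 and 15. The tests were checked on simulated data with the same spread in every library. The real groups differed in spread, so this check does not measure power or error rates for these lines. Total counts of 35273408 to 100441756 set the counting precision, and intervals on counts are exact Poisson intervals at 95% that cover counting error only.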

Additional observations from a re-analysis of the deposited data

Results flagged for a closer look

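Uhrf1 stood out in 1 library. Among the 4 Prkd3-/- immortalized lines, line 13 had 250.5 CPM, where the other lines had 56.8, 63.7 and 64.9 CPM, and its gap to the next line was 0.958 of the whole range of the group, above Dixon's critical value of 0.829 for 4 samples. For a single gene, chance flags about 1 in 20 sets of 4 values. All 7 genes were examined in this group, so chance gives at least 1 flag more often than that. Line 13 also had the highest summed level of S-phase and mitosis genes, at 5267 CPM, and its part in the Uhrf1 level was not tested.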

How the results depend on the processing

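No member was called under any of the 13 alternatives per gene in WT, 15 in Prkd3-/-, 20 in the average of genotypes and 19 for the difference between them, and all 28 group means moved by less than 1 SD when CPM was scaled by library size alone. The number of all genes called depended far more on the processing. In WT, 361 became 1045 at an adjusted p-value under 0.05 with no fold limit, 1354 with DESeq2, 198 with limma weights per state, 0 with the replicate block and 0 in the joint fit (2199 with an unadjusted p-value under 0.05), and 48 to 743 when libraries were left out, the lowest without primary clone 3 and the highest without line 5. In Prkd3-/-, 0 became 190 with DESeq2 and 1 in the joint fit. In the average, 157 became 689 at 0.05, 911 with DESeq2, 76 with limma, 5 with the replicate block, 270 with lines 13 and 13a summed, and 14 to 420 when libraries were left out, the lowest without WT primary clone 5 and the highest without line 13a. For the difference between genotypes, 0 became 38 with DESeq2 and 0 to 2 when libraries were left out, the 2 without line 14. The causes were not tested.

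The direction of a member's Log2FC changed in 45 fits, 8 of 91 in WT, 17 of 105 in Prkd3-/-, 12 of 140 in the average and 8 of 133 for the difference. With limma these were Dnmt3b at −0.095 in WT and −0.0063 in the average, Tet2 at −0.22 in Prkd3-/-, Dnmt1 at −0.044 in the average and Tet1 at −0.099 for the difference. With the replicate block they were Dnmt3b at −0.053 in WT, Tet2 at −0.12 in Prkd3-/- and Dnmt1 at −0.041 in the average, and the block changed no call of a member. With lines 13 and 13a summed they were Dnmt3a at 0.035 in Prkd3-/- and Dnmt1 at −0.065 in the average. Tet2 in Prkd3-/- was at −0.00053 with DESeq2 and −0.0056 with no filter. When libraries were left out in turn, the Log2FC in WT ranged from −0.71 to 0.077 for Dnmt3a, −0.29 to 0.27 for Dnmt3b and −0.089 to 0.84 for Tet1. In Prkd3-/- it ranged from −0.12 to 0.58 for Dnmt1, −0.45 to 0.19 for Dnmt3a, −0.036 to 0.29 for Dnmt3b, −0.030 to 1.48 for Tet1, −0.50 to 0.27 for Tet2 and −0.017 to 0.26 for Tet3. In the average it ranged from −0.23 to 0.13 for Dnmt1, −0.36 to 0.028 for Dnmt3a, −0.073 to 0.20 for Dnmt3b and −0.19 to 0.37 for Uhrf1. For the difference it ranged from −0.22 to 0.68 for Dnmt3a, −0.14 to 0.42 for Dnmt3b, −0.51 to 1.177 for Tet1, −0.12 to 0.65 for Tet2 and −0.44 to 0.13 for Tet3. Depth limits Dnmt3b most, at 27 to 171 counts per library.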
